A study of Mus musculus with 4 samples.

Results

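Mitochondria of a cell continually fuse and divide, and damaged ones are removed by mitophagy, the form of autophagy that delivers mitochondria to lysosomes. This set held 10 genes of these processes that were chosen by name from the mouse gene table, in which 19030 genes are listed. The mitofusins *Mfn1* and *Mfn2*, together with *Opa1* and *Oma1*, belong to fusion. *Dnm1l*, *Fis1* and *Mff* belong to fission, and *Pink1*, *Bnip3* and *Bnip3l* to mitophagy. Each of the 10 symbols matched a single row of the table, and the rule used no measured value. The set was, however, chosen with earlier results of these data known.

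The tissue was ingWAT, the inguinal white fat depot beneath the skin, from C57BL/6 mice kept in the cold, and the expression of each gene was read by sequencing of polyadenylated RNA. Both groups carried *Oct3* (*Slc22a3*) alleles flanked by loxP sites. The Ctrl mice were littermates without Cre (2 libraries, labelled Control), and the cKO mice also carried Adiponectin-Cre, which acts in adipocytes (2 libraries, labelled Deficient). The labels give an age of 3 months and 4°C for both groups, and the Methods describe male mice that spent a period at a milder temperature before the cold and give a younger age than the labels. Both groups were thus in the cold, and no group at room temperature was analysed here. Cells of the depot other than adipocytes keep *Oct3* in this model. How many mice each library held, and whether the libraries came from separate animals, is not stated in the sources used here, so the p-values measure the spread between these libraries, which may in part be technical.

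Outer mitochondrial membranes are joined by the mitofusins, large GTPases on the surface of the organelle, and inner membranes by Opa1, a dynamin-related GTPase that also keeps cristae narrow. Oma1 is a protease of the inner membrane that cuts Opa1 under stress and so limits fusion. In fission, Drp1, the product of *Dnm1l*, is drawn from the cytosol to adaptors such as Mff and constricts the tube. For mitophagy, the kinase Pink1 builds up on depolarized mitochondria and marks them for removal through ubiquitin, whereas Bnip3 and Bnip3l (also called Nix) are receptors in the outer membrane that bind the autophagosome directly and are known to be induced by hypoxia. In thermogenic fat, fission in response to norepinephrine is known to accompany heat production, and mitophagy to accompany the return of beige to white fat cells.

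Of the 10 genes, 3 were higher in cKO at an adjusted p under 0.05 (30.0%, beside 12.0% of all genes tested). None was lower, beside 13.8% of all genes tested. The promoters of these 3 genes are shown with that of *Bnip3*, the member with the highest level, for comparison. The sequences are those of the RefSeq promoter table for GRCm38.p6, which held an entry for 9 of the 10 genes. Up to 250 bases before the listed transcript start are given, 5′ to 3′ on the strand of the gene, and capitals mark matches to the motifs described beneath them.

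*Opa1*, chr16:29579084-29579284, plus strand: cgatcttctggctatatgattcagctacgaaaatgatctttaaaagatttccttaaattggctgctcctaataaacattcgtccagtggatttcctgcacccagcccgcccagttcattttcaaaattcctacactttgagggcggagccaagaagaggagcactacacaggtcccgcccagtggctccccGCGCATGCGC
*Mfn2*, chr4:147904910-147905159, minus strand: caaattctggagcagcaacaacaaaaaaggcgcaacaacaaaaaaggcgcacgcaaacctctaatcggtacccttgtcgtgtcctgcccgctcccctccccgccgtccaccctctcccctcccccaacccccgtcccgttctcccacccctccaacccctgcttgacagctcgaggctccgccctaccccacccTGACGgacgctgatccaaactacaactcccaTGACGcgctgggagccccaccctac
*Pink1*, chr4:138326297-138326546, minus strand: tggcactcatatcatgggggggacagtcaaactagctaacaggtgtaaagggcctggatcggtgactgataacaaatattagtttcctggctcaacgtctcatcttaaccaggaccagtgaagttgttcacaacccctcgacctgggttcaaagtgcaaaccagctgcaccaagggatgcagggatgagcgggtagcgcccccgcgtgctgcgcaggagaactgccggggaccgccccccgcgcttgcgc
*Bnip3*, chr7:138909507-138909756, minus strand: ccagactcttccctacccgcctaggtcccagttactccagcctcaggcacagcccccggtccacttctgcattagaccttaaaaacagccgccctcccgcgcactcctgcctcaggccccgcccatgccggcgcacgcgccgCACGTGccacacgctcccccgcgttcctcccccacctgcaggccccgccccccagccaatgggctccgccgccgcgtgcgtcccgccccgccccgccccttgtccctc

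The *Opa1* entry reached 53 bases into the span that the gene table gives to *Opa1* and is shown only to the end of its match, 4 bases inside that span. There, starting at position -59 from the listed start, GCGCATGCGC holds the site of NRF1, a regulator of genes for mitochondrial proteins, searched as GCATGCGC on both strands, and the matches on the 2 strands overlap. Of all 32851 promoters in the table, 2.26% held this site, and *Opa1* was the only member among the 9 that did. *Mfn2* held TGACG, the short form of the element bound by CREB, starting at positions -56 and -25, as did *Mfn1* and *Mff* once each. This short word was found in 17.8% of all promoters. *Bnip3* held CACGTG at position -108, which contains ACGTG on both strands. ACGTG is the only form of the core of the hypoxia response element that was searched, and 16.6% of all promoters held it. No match to any of the motifs searched was found in the *Pink1* window. The *Oma1* window, chr4:103313596-103313845, lay wholly inside the span of its gene. Those of *Mfn1* and *Dnm1l* reached 39 and 7 bases into theirs, and *Bnip3l* had no entry. None of the 9 members searched held AAGGTCA, which binds estrogen-related receptors and was found in 4.08% of promoters. The full CREB site TGACGTCA, which contains the short form, was found in 1.55% of promoters and in none of these 9 members. *Fis1* and *Mfn1* held CCGGAAG, which binds GABP and was found in 6.91% of promoters. The TFEB site TCACGTGA, which contains ACGTG, was found in 0.785% of promoters and in none of the 9 members searched. A match describes the letters of the window and is no measure of binding.

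Levels are given as FPKM, which divides the fragments of a gene by transcript length and by sequencing depth. The test of each gene was limma on log2(FPKM + 1), fitted to all 12658 genes whose mean was 1 FPKM or more, and p-values were adjusted over all of them by the method of Benjamini and Hochberg. Each log2 fold change sets cKO against Ctrl on this scale, where the added 1 shrinks the change of weakly expressed genes, and a gene is called at an adjusted p under 0.05. The deposited values hold no read counts. From the steps between the FPKM of short RNA genes the depth was estimated as 18100000 and 18050000 reads in Ctrl and 17350000 and 17450000 in cKO. At this depth the members had between 244 reads (*Oma1*) and 5687 reads (*Mfn2*) in a library, so that the counting error of a single value was at most 6.41% for *Oma1* and 1.48% for *Mfn2* and *Pink1*. All 10 genes passed the filter on low FPKM.

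The targeted gene was lower in cKO. *Slc22a3*, which encodes Oct3, was at 16.95 and 17.68 FPKM in the Ctrl libraries and at 9.07 and 9.50 FPKM in the cKO libraries (log2 fold change -0.83 ± 0.066 SE, limma, adjusted p = 0.000439). Adipocyte genes were abundant in both groups, with the 8 genes of an adipocyte list (among them *Adipoq*, *Fabp4* and *Plin1*) summing to between 17573 and 21741 FPKM per library, and 4 of the 8 were lower in cKO. Of 8 brown adipocyte genes, 7 were higher, and their summed FPKM was 1522 and 1802 in Ctrl and 4795 and 4052 in cKO. Genes of other cells moved with the genotype too. The 14 genes of a skeletal muscle list summed to 2830 and 1928 FPKM in Ctrl but to 49.8 and 48.8 FPKM in cKO, and all 12 that could be tested were lower. None of the 14 was listed at 0, although *Ckm*, which encodes muscle creatine kinase, was at 0.56 and 0.35 FPKM in cKO. B cell genes summed to 233 and 265 FPKM in Ctrl and to 362 and 411 FPKM in cKO, with 6 of 7 higher, and T cell genes to 81.7 and 85.7 against 113 and 150 FPKM, with 5 of 6 tested higher. Fibroblast progenitor genes summed to 1421 and 1218 FPKM in Ctrl and to 748 and 778 FPKM in cKO, with 6 of 7 lower. Of the remaining lists, 4 of 7 endothelial genes were lower, as were 2 of 5 tested erythroid genes and 4 of 5 nerve genes (with 1 higher), and macrophage genes were split, with 2 higher and 5 lower of 10. Keratinocyte and epithelial genes summed to at most 0.9 FPKM. Beside these counts, 12.0% of all genes tested were called higher in cKO and 13.8% lower. In whole tissue, fewer cells of a type and less RNA per cell cannot be told apart. The part of these cell types in the values of the 10 genes was not tested.

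**Figure D1:**
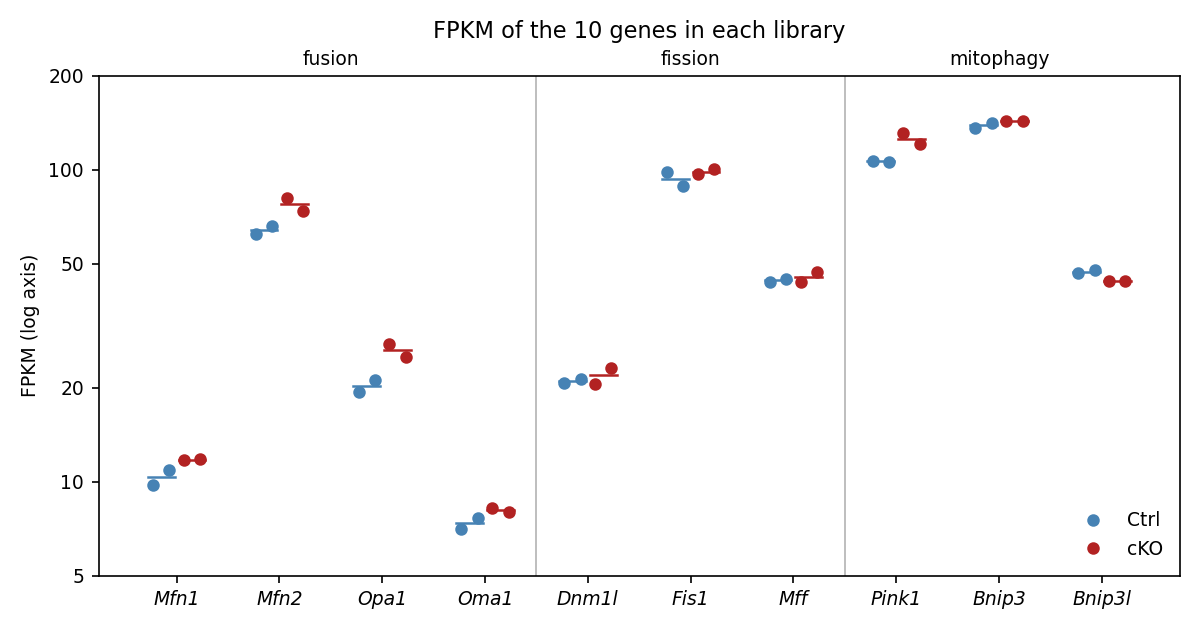
FPKM (log axis) of the 10 genes in each library, Ctrl in blue and cKO in red, with points for the 2 libraries of each group and a line at their mean. The cKO points of *Mfn1*, *Mfn2*, *Opa1*, *Oma1*, *Pink1* and *Bnip3* lie above both Ctrl points. Those of *Bnip3l* lie below both, and those of *Dnm1l*, *Fis1* and *Mff* overlap with Ctrl.

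Transcript levels differed widely among the 10 genes. In Ctrl, *Bnip3* had the highest mean level at 139 FPKM, followed by *Pink1* at 107 FPKM and *Fis1* at 93.5 FPKM. Next came *Mfn2* at 64.1 FPKM, *Bnip3l* at 47.1 FPKM and *Mff* at 44.2 FPKM. *Dnm1l* at 21 FPKM and *Opa1* at 20.3 FPKM were neighbours whose libraries overlapped, and *Mfn1* at 10.3 FPKM and *Oma1* at 7.36 FPKM were lowest. All other neighbours in this order were separate in both Ctrl libraries. In cKO the top of the order was the same, *Mff* at 45.3 FPKM and *Bnip3l* at 44.1 FPKM were no longer separate, and *Opa1* at 26.4 FPKM stood apart from *Dnm1l* at 21.9 FPKM. Transcripts of the mitophagy receptors and of *Pink1* were thus more abundant per length than those of the fission GTPase in either group.

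Among the fusion genes, *Opa1* and *Mfn2* rose in cKO. *Opa1* (Entrez gene 74143, chr16:29579281-29663127) was at 19.34 and 21.23 FPKM in the Ctrl libraries and at 27.61 and 25.11 FPKM in the cKO libraries. Both cKO libraries were higher than both Ctrl libraries, and the means were 20.3 ± 1.34 and 26.4 ± 1.77 FPKM (SD, n = 2 each), 1.30 times as high in cKO. Its log2 fold change of 0.36 was the largest of the 10 genes (SE 0.0748, limma, adjusted p = 0.0126). The call was lost without Ctrl library 1 (adjusted p = 0.124), without cKO library 1 (adjusted p = 0.0734) and with no filter on low FPKM (adjusted p = 0.0665), and it held in 8 of 11 alternative settings, with log2 fold changes between 0.30 and 0.43.

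*Mfn2* (Entrez gene 170731, chr4:147873586-147904909) was at 62.17 and 66.09 FPKM in Ctrl and at 81.08 and 73.79 FPKM in cKO. Again the groups did not overlap, and the means were 64.1 ± 2.77 and 77.4 ± 5.15 FPKM (SD, n = 2 each), 1.21 times as high in cKO. The log2 fold change was 0.27 (SE 0.0676, limma, adjusted p = 0.027). It held in 6 of 11 alternative settings. Without Ctrl library 1 the adjusted p was 0.192, without Ctrl library 2 it was 0.0867, and without cKO library 1 it was 0.12. It was 0.0906 with no filter and 0.0627 without the trend of the variance on the mean, while the log2 fold change stayed between 0.20 and 0.33.

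*Mfn1* (Entrez gene 67414), the paralog of *Mfn2*, was at 9.78 and 10.88 FPKM in Ctrl and at 11.73 and 11.81 FPKM in cKO. The cKO libraries lay above both Ctrl libraries, but the log2 fold change of 0.17 did not pass the test (SE 0.074, limma, adjusted p = 0.131). Each mitofusin can join outer membranes, so their proportion was followed as well. *Mfn2* was 6.36 and 6.07 times the level of *Mfn1* in the Ctrl libraries and 6.91 and 6.25 times in the cKO libraries. These ratios overlapped between the genotypes (difference of 0.08 on the log2 scale, exact permutation test, two-sided, p = 0.667, where 2 against 2 libraries cannot go below 0.33).

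*Oma1* (Entrez gene 67013) was at 7.03 and 7.68 FPKM in Ctrl and at 8.25 and 7.97 FPKM in cKO. The groups did not overlap, and the log2 fold change of 0.13 did not pass the test (limma, adjusted p = 0.272, 95% interval -0.054 to 0.306). With the lowest level of the set it also carried the largest counting error. All 4 genes of the fusion group, which includes *Oma1* although its product limits fusion, had a log2 fold change above 0. So did 6173 of all 12658 genes tested. The median was 0.22 over the 4 genes, against -0.006 over all genes tested.

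None of the 3 fission genes passed the test (0 also at an unadjusted p under 0.05). *Dnm1l* (Entrez gene 74006) was at 20.69 and 21.38 FPKM in Ctrl and at 20.64 and 23.17 FPKM in cKO. One cKO library fell below both Ctrl libraries and the other above them, and the 95% interval of the log2 fold change was -0.116 to 0.224 (limma, adjusted p = 0.626). *Fis1* (Entrez gene 66437), an outer membrane protein with a debated part in fission, was at 98.60 and 88.45 FPKM in Ctrl and at 96.83 and 100.28 FPKM in cKO. Its Ctrl libraries were spread more widely than its cKO libraries, with an interval of -0.084 to 0.238 (limma, adjusted p = 0.452). *Mff* (Entrez gene 75734), the main receptor for Drp1, was at 43.68 and 44.72 FPKM in Ctrl and at 43.67 and 46.97 FPKM in cKO, with an interval of -0.108 to 0.177 (limma, adjusted p = 0.714). A test that was not passed does not show that the levels were equal. The difference between fusion and fission genes was tested only as a ratio of GTPases. Summed *Mfn1* and *Mfn2* were 3.48 and 3.60 times the level of *Dnm1l* in Ctrl and 4.5 and 3.69 times in cKO, higher in both cKO libraries (difference of 0.20 on the log2 scale, exact permutation test, two-sided, p = 0.33, the smallest that this design allows). That difference was 0.06 without cKO library 1 and 0.35 without cKO library 2.

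**Figure D2:**
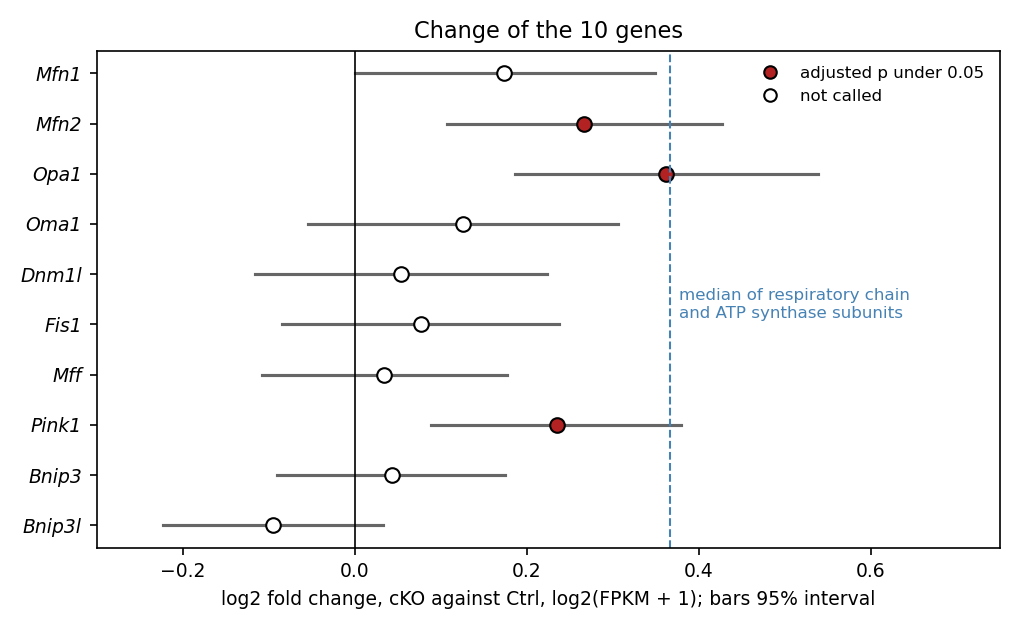
Change between Ctrl and cKO (log2 fold change of FPKM + 1) for the 10 genes, positive where cKO is higher, with 95% intervals from limma as bars, and filled points for an adjusted p under 0.05. *Opa1*, *Mfn2* and *Pink1* are filled, and the dashed line marks the median of the respiratory chain and ATP synthase subunit genes at 0.37.

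Among the mitophagy genes, *Pink1* rose. *Pink1* (Entrez gene 68943, chr4:138313409-138326296) was at 106.97 and 106.20 FPKM in Ctrl and at 130.88 and 120.51 FPKM in cKO. The groups did not overlap, and the means were 107 ± 0.544 and 126 ± 7.33 FPKM (SD, n = 2 each), 1.18 times as high in cKO. This was a log2 fold change of 0.23 (SE 0.0618, limma, adjusted p = 0.0312), and the call held in 5 of 11 alternative settings. With median-of-ratios scaling the adjusted p was 0.0532, with no filter 0.08 and without the trend 0.0705. It was 0.164 without Ctrl library 1, 0.151 without Ctrl library 2 and 0.119 without cKO library 1, with log2 fold changes between 0.18 and 0.29 in all settings.

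Neither of the receptor genes of the set passed the test. *Bnip3* (Entrez gene 12176) was at 135.62 and 141.57 FPKM in Ctrl and at 142.80 and 142.74 FPKM in cKO. Both cKO libraries were above Ctrl by a small margin, and the 95% interval of the log2 fold change was -0.09 to 0.175 (limma, adjusted p = 0.617). *Bnip3l* (Entrez gene 12177) was at 46.52 and 47.75 FPKM in Ctrl and at 44.03 and 44.11 FPKM in cKO. It was the only one of the 10 genes with both cKO libraries below Ctrl, at 0.935 times the Ctrl mean, and this did not pass the test (limma, adjusted p = 0.245, 95% interval -0.223 to 0.033). *Bnip3l* was 0.343 and 0.337 times the level of *Bnip3* in Ctrl and 0.308 and 0.309 times in cKO, lower in both cKO libraries (difference of -0.14 on the log2 scale, exact permutation test, two-sided, p = 0.33, the smallest this design allows). RefSeq also lists the pseudogene *Bnip3l-ps*, and how reads shared with it were counted is not given in the sources used here.

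Over the whole set, 3 of 10 genes were called higher (30.0%), beside 12.0% of all genes tested, and 0 were called lower, beside 13.8% of all genes. At an unadjusted p under 0.05 the same counts were 3 and 0. By the libraries alone, 6 of the 10 genes had both cKO libraries above both Ctrl libraries, beside 31.9% of all genes, 1 had both below, beside 34.6%, and 3 overlapped. The median log2 fold change was 0.10 over the 10 genes and -0.006 over all genes. Of the 10 values 9 were above 0, beside 6173 of all 12658 genes. Exons of *Bnip3*, *Dnm1l* and *Mff* overlap genes on the opposite strand in the GENCODE annotation, by 504, 243 and 195 bases, and since it is not stated whether the libraries kept the strand, reads of these partners cannot be told apart from theirs. No exon of *Mfn1*, *Mfn2*, *Opa1* or *Oma1* overlapped another gene, and those of *Pink1* overlapped only microRNA genes on the same strand. The RefSeq transcripts listed with the deposited values number 5 for *Mfn2* and for *Dnm1l*, 4 for *Mff* and 2 for *Opa1*. A single value is given per gene, so splice forms were not compared.

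**Figure D3:**
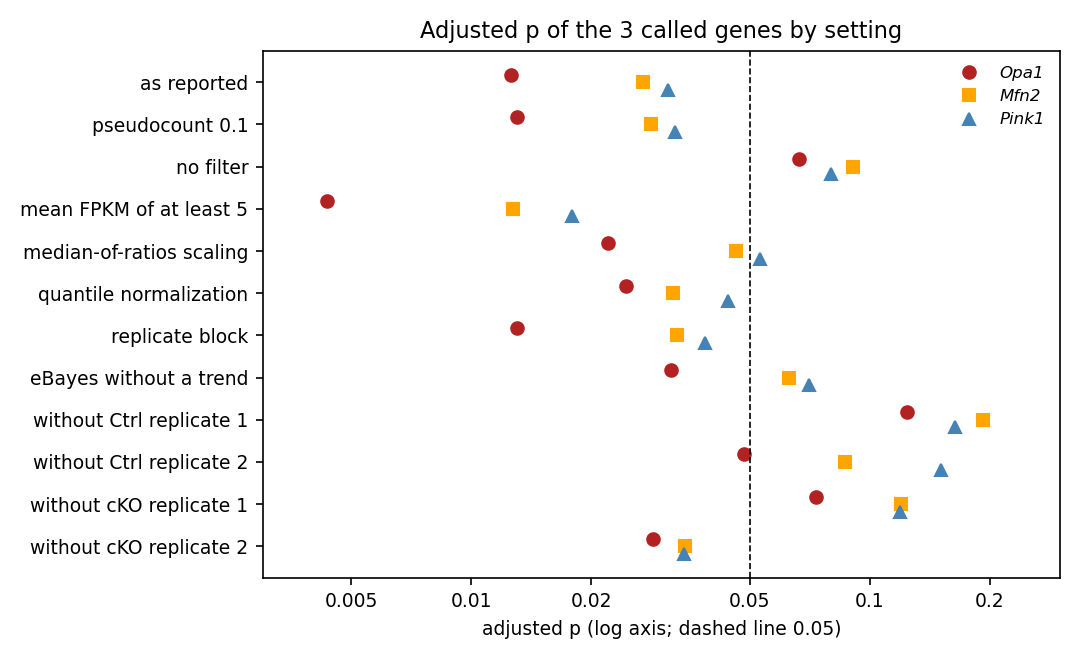
Adjusted p (log axis) of *Opa1*, *Mfn2* and *Pink1* as reported and under each of 11 alternative settings, with a dashed line at 0.05. *Opa1* lies left of the line in 8 alternatives, *Mfn2* in 6 and *Pink1* in 5, and each has its highest adjusted p without Ctrl library 1 (0.124, 0.192 and 0.164).

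Genes of the respiratory chain and ATP synthase gave a scale for these changes. Of 81 nuclear genes for subunits that could be tested, 66 were higher in cKO (81.5%) and 4 lower, and the median of their log2 fold changes was 0.37. Their summed FPKM was 26902 and 28088 in Ctrl and 38002 and 35185 in cKO, 1.33 times as high. The list shares *Cox7a1* and *Cox8b* with the brown adipocyte list. Per 1000 FPKM of this sum, *Opa1* was at 0.719 and 0.756 in Ctrl and at 0.727 and 0.714 in cKO, values that overlapped between the groups. *Mfn2* was at 2.31 and 2.35 in Ctrl and at 2.13 and 2.10 in cKO, and *Bnip3l*, with the lowest ratio, at 1.73 and 1.70 against 1.16 and 1.25. On this scale 9 of the 10 genes were lower in both cKO libraries, which was near the share of all genes tested, 82.8%.

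The other genes of these processes were taken from lists of 80 genes, of which 76 could be tested. In cKO 16 of them were higher (21.1%, beside 12.0% of all genes tested), 4 were lower (5.26%, beside 13.8%) and 56 were not called, and their median was 0.05 on the log2 scale. The lists are described by their counts, with no test of a list. Of 13 genes for fusion and inner membrane proteases, 4 were higher (30.8%, beside 12.0% of all genes) and 1 was lower. *Afg3l2*, a subunit of the protease of the matrix side, was at 37.84 and 41.84 FPKM in Ctrl and at 60.34 and 56.31 FPKM in cKO (log2 fold change 0.54, limma, adjusted p = 0.00222), and its call held in all 11 alternative settings. Its partner *Spg7* rose by 0.24 on the log2 scale (limma, adjusted p = 0.0267). The prohibitins, which form rings in the inner membrane, rose as well, *Phb* by 0.45 (adjusted p = 0.00284) and *Phb2* by 0.26 (adjusted p = 0.0141). The calls of *Spg7*, *Phb* and *Phb2* held in 5, 10 and 8 of the 11 settings. The gene lower in cKO, *Yme1l1*, which encodes the protease that cuts Opa1 in unstressed mitochondria, is named here after its values were seen. It was at 23.34 and 23.28 FPKM in Ctrl and at 19.92 and 20.33 FPKM in cKO (log2 fold change -0.20, limma, adjusted p = 0.0403), and the call held in 5 of 11 settings, with an adjusted p of up to 0.184.

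In the MICOS complex, which holds the necks of cristae, 4 of 7 genes were higher (57.1%, beside 12.0% of all genes), and the median over the 7 was 0.27 on the log2 scale. *Immt*, its core subunit, was at 117.66 and 133.01 FPKM in Ctrl and at 177.71 and 164.01 FPKM in cKO (log2 fold change 0.45, limma, adjusted p = 0.00671). *Apoo* rose by 0.32 (adjusted p = 0.00582), *Minos1* by 0.27 (adjusted p = 0.0118) and *2410015M20Rik* by 0.27 (adjusted p = 0.0242). The calls of these 4 subunits held in 9, 10, 8 and 6 of 11 settings in the order given. *Chchd6*, named after its values were seen, was at 42.03 and 40.77 FPKM in Ctrl and at 37.16 and 35.17 FPKM in cKO, lower in both cKO libraries (log2 fold change -0.19, limma, adjusted p = 0.0529).

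Of 10 tested fission genes outside the set, 2 were higher (beside 12.0% of all genes) and none was lower (3 and 1 at an unadjusted p under 0.05). *Mtfp1*, an inner membrane protein that takes part in fission, was at 16.05 and 17.24 FPKM in Ctrl and at 27.89 and 24.09 FPKM in cKO (log2 fold change 0.61, limma, adjusted p = 0.00264), and this held in 10 of 11 alternative settings. *Mul1*, a ubiquitin ligase of the outer membrane, rose by 0.24 (limma, adjusted p = 0.0459), which held in 4 of 11. Of the genes for transport along microtubules, *Rhot2*, a GTPase that ties mitochondria to motors, was at 20.44 and 21.59 FPKM in Ctrl and at 29.70 and 27.26 FPKM in cKO (log2 fold change 0.42, limma, adjusted p = 0.00499), whereas the motor adaptor *Trak1* fell from 31.55 and 29.70 FPKM to 25.70 and 24.55 FPKM (limma, adjusted p = 0.0178). These calls held in 10 and 7 of 11 settings.

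In the list for the *Pink1* branch of mitophagy, 3 of 12 tested genes were higher (25.0%, beside 12.0% of all genes). None was lower, and the counts at an unadjusted p under 0.05 were also 3 and 0. *Sqstm1*, an adaptor that binds ubiquitin on damaged mitochondria, was at 162.95 and 159.78 FPKM in Ctrl and at 203.17 and 189.96 FPKM in cKO (log2 fold change 0.28, limma, adjusted p = 0.0149). The deubiquitinase gene *Usp8* rose by 0.23 (adjusted p = 0.0295) and *Vdac1*, a channel of the outer membrane, by 0.21 (adjusted p = 0.0399). The calls of *Sqstm1*, *Usp8* and *Vdac1* held in 7, 5 and 4 of 11 settings. Among 6 further receptors 1 was higher (16.7%, beside 12.0% of all genes) and none was lower, with a median of -0.048 on the log2 scale. The called gene, *Bcl2l13*, was at 16.01 and 17.96 FPKM in Ctrl and 20.18 and 20.43 FPKM in cKO (log2 fold change 0.25, limma, adjusted p = 0.0439, held in 5 of 11 settings). It was the only 1 of the 6 with a log2 fold change above 0.

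Of 24 core genes of the general autophagy machinery, 1 was higher (4.17%, beside 12.0% of all genes) and 2 were lower (8.33%, beside 13.8%), or 3 and 3 at an unadjusted p under 0.05, and the median over the list was 0.005 on the log2 scale. *Gabarapl1*, which encodes an autophagosome protein of the LC3 family, was at 89.37 and 88.27 FPKM in Ctrl and at 102.09 and 101.72 FPKM in cKO (limma, adjusted p = 0.0341). *Lamp2*, a membrane protein of lysosomes, was at 114.33 and 113.11 FPKM in Ctrl and at 91.34 and 95.02 FPKM in cKO (limma, adjusted p = 0.00993), and the kinase gene *Ulk2* fell by 0.22 on the log2 scale (limma, adjusted p = 0.0464). The calls of *Gabarapl1*, *Lamp2* and *Ulk2* held in 5, 8 and 4 of 11 settings.

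**Figure D4:**
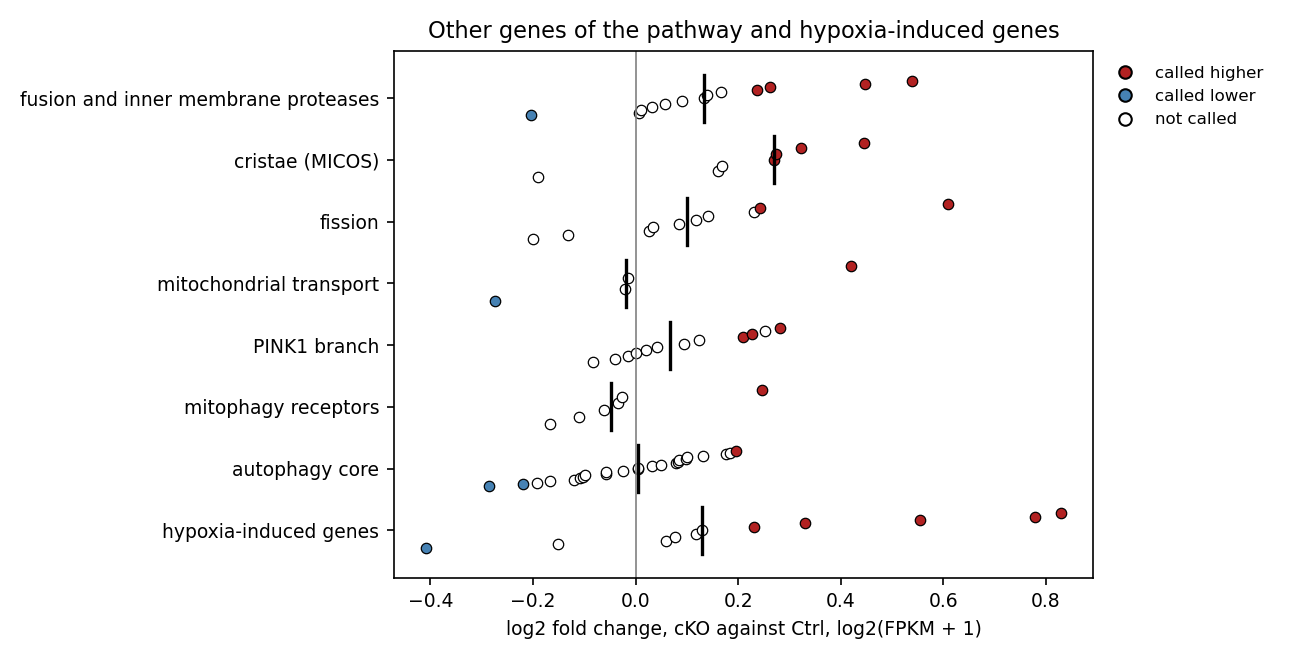
Change between Ctrl and cKO (log2 fold change of FPKM + 1, positive where cKO is higher) for each tested gene of the 7 pathway lists and of the hypoxia-induced list, with called genes filled in red (higher) or blue (lower) and a bar at the median of each list. The MICOS list has the highest median at 0.27, and the autophagy core list is centred near 0 at 0.005.

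Because *Bnip3* and *Bnip3l* are known targets of hypoxia-inducible factors, other hypoxia-induced genes were set beside them. Of 11 tested, 5 were higher in cKO (45.5%, beside 12.0% of all genes) and 1 was lower, and their median was 0.13 on the log2 scale. *Egln3*, an oxygen-sensing hydroxylase gene, was at 3.62 and 3.84 FPKM in Ctrl and at 8.40 and 6.52 FPKM in cKO (log2 fold change 0.83, limma, adjusted p = 0.00289). Its paralog *Egln1* rose by 0.55 (adjusted p = 0.00213) and *Ankrd37* by 0.78 (adjusted p = 0.00304), and *Ndrg1* fell by 0.41 (adjusted p = 0.00827). These calls held in 10 of 11 alternative settings for *Egln3*, 11 of 11 for *Egln1*, 9 of 10 for *Ankrd37* and 8 of 11 for *Ndrg1*. The other 5 genes of the list were not called. Over all 11 tested genes the log2 fold changes ranged from -0.41 to 0.83. Those of *Bnip3* (0.043) and *Bnip3l* (-0.095) lay below the median of the list. A part of hypoxia in the levels of these receptor genes was not tested.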

How the data were processed

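Polyadenylated RNA of ingWAT was sequenced by the authors as single-end reads on the BGISEQ-500 platform, with 2 Ctrl and 2 cKO libraries. The deposited values are FPKM per gene, made by the authors. The submitters' processing notes list HISAT2 2.0.4, RSEM 1.2.12 and mm10 without their roles, and no scaling between libraries is stated. Samples were grouped by their titles, and no per-sample column was left unused. The symbols of 24 genes read as dates and were identified by their IDs, and 18977 of 19030 gene IDs matched RefSeq (GRCm38.p6).

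Genes averaging 1 FPKM or more were compared on log2(FPKM + 1) in R 4.3.3 with limma 3.58.1, using eBayes with a trend and Benjamini-Hochberg adjustment over 12658 genes, with a threshold of 0.05. Ratios within a library were compared with exact permutation tests. The procedure was tested on simulated data, in which the planted changes of genes were larger than those of the members. Depth was estimated from 303 genes for RNAs of at most 400 bases, with 83.3% to 87.4% of their values whole within 0.1 reads, and covers counting error only. Longer genes gave no whole reads, so no count test was run.

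The members and lists were chosen with earlier results of these data known, and the list of respiratory subunits was set by symbol after values were seen. Named genes are the 10 members, *Slc22a3* and, of each list, at most 4 called genes with the smallest p. Alternatives were quantile normalization or median-of-ratios scaling, a filter at 5 FPKM or none, a pseudocount of 0.1, a replicate block, eBayes without a trend, a required log2 change of 1 in either direction, and each library left out. Python 3.11.15, pandas 2.3.3, numpy 2.4.6 and matplotlib 3.10.9 were used otherwise.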

Additional observations from a re-analysis of the deposited data

How the results depend on the processing

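The count of the 10 genes called higher in cKO (3 as reported) was 0 with no filter on low FPKM, 1 without the trend, 0 under a required log2 change of 1 in either direction, and between 0 and 3 when a library was left out. No member was called lower in any setting run. Of all genes, 3269 were called as reported, 1762 of 19030 with no filter, 233 under that requirement, and between 787 and 2340 when a library was left out. The other pathway genes called higher (16 as reported) numbered 8 with no filter, 9 without the trend and 0 under that requirement, and those called lower (4 as reported) numbered 1, 2 and 0. With a library left out the higher calls ranged from 1 to 11 and the lower calls from 0 to 1. The causes were not tested. The filter was applied before the fit. It therefore sets which genes share the adjustment and which genes shape the trend of the variance on the mean. Directions turned only for fission genes with a library left out, *Dnm1l* (-0.026 to 0.134 on the log2 scale) and *Mff* (-0.017 to 0.086), both below 0 without cKO library 2, and *Fis1* (-0.001 to 0.154), below 0 without Ctrl library 2. With a replicate block 3383 genes were called, and the calls of the 10 genes did not change, whereas *Vdac1* (adjusted p = 0.0612), *Ulk2* (0.0539) and *Gabarapl1* (0.0563) no longer passed in limma. The replicate numbers were not taken as pairs, since only 2 pairs exist and deviations of same-numbered libraries correlated at 0.015. Over the 11 settings other than the required log2 change, under which every call of a member or pathway gene was lost, the log2 fold changes of the members kept direction and call 93 times and lost the call 14 times, those of the other named genes 185 and 78 times. The ratios within a library kept their direction in each setting run.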
